A study of Bos taurus with 14 samples.

Results

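SAA3, LBP and CHI3L1 encode secreted proteins of the acute-phase and innate immune response that the udder can make itself. They were chosen by name from 6697 gene symbols on bovine Affymetrix arrays, and all 3 were found, each on 1 probe set (NCBI genes 281474, 512242 and 286869). The choice was made with these arrays' values known, so levels and covariation are given as description without tests. RNA from the mammary gland of each of 14 Holstein-Friesian cows was measured on 1 array. The cows stood in 7 blocks, numbered 302 to 308, of 1 Omega and 1 Control cow each. Omega cows (n = 7) were given a linseed concentrate on top of the basal diet, and Control cows (n = 7) a concentrate that lacked linseed. Both diets began 3 weeks before expected calving and ended 6 weeks after calving. Breed and basal diet were therefore common to both groups. Cow age is given only through a parity label, which was 1 for 4 cows, 2 for 2 cows and 3 or more for 8 cows. The design text names no first-parity cows, and all 4 cows labelled 1 have records of an earlier lactation, so what a label of 1 stands for is unclear. The day of tissue sampling, and whether a gland was infected, are not given in the sources used here.

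Serum amyloid A proteins are small apolipoproteins whose production climbs during inflammation. Most are made by the liver, but the SAA3 form is made by mammary epithelium, is secreted into milk and colostrum, and is used as a milk marker of mastitis in cows. LBP, the lipopolysaccharide-binding protein, takes endotoxin from bacterial membranes and hands it to CD14, which passes it to the receptor TLR4. CHI3L1 is a chitinase-like lectin without enzyme activity, made by macrophages, neutrophils and epithelial cells in inflamed or remodelling tissue, and secreted by the bovine gland as it dries off. SAA3 has a near copy in cattle, M-SAA3.2, for which no probe set was listed under its own accession. Whether the SAA3 probe set also detects M-SAA3.2 was not tested.

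The values are log2 intensities, so a difference of 1 is a doubling. Array medians lay between 5.70 and 5.76, and all values between 2.26 and 14.8. Such values are compressed near both ends, so the folds given here can be understated, and the number of arrays limits the precision. The tissue label was borne out by milk protein transcripts, with LALBA, the lactose synthase cofactor, at 14.50 to 14.60 in all 14 cows. In blocks 302 and 304, the array of the Control cow stood apart from the other 12. Their median correlations with the other arrays were 0.959 and 0.951, against 0.980 to 0.988, and they correlated with each other at 0.986. The lowest of the 12, at 0.980, was the Omega cow of block 306, and over the 12 cows this measure ran with SAA3 at r = -0.62. Diet and parity results are given with and without the 2 Control cows. In bulk tissue, fewer cells of a type and less RNA per cell cannot be told apart.

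All 3 genes were highest in the same 2 cows, the Control cows of blocks 302 and 304, and each was next highest in the Omega cow of block 306. SAA3 reached 12.80 in the Control cow of block 302 and 13.82 in that of block 304. In the other 12 cows SAA3 ran from 6.70 to 10.20, with a median of 7.24. The 2 cows were thus 47.3-fold and 96.1-fold above that median, and the nearest other cow was 6.08-fold below the lower of them. Over all 14 cows SAA3 spanned 7.12 log2 units, or 139-fold. Among 7518 probe sets that passed a filter on low intensity, only 2 had a wider range.

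LBP, the endotoxin carrier, was at 10.29 and 9.95 in the Control cows of blocks 302 and 304. In the other 12 cows it lay between 6.48 and 8.46, with a median of 7.09. The 2 cows stood 9.16-fold and 7.25-fold above that median, and 2.81-fold separated the lower of them from the nearest other cow. Unlike for SAA3, the cow of block 302 was the higher of the pair, by 0.34 log2. The range over 14 cows was 3.80 log2, or 13.9-fold, which ranked 52nd among the 7518 probe sets.

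CHI3L1, the chitinase-like lectin, was at 12.49 and 12.52 in the same 2 cows. The other 12 cows ran from 4.35 to 8.90, with a median of 5.44, so the 2 cows stood 133-fold and 136-fold above it. The pair differed from each other by only 0.03 log2 in this gene, against 1.02 in SAA3. A 12.1-fold gap lay between them and the nearest other cow. CHI3L1 had the second widest range of all probe sets tested, at 8.17 log2, or 289-fold. The median range over the 7518 probe sets was 0.82 log2. The lowest CHI3L1 values lay below the filter level of 4.59, near the dim end of the scale.

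**Figure D1:**
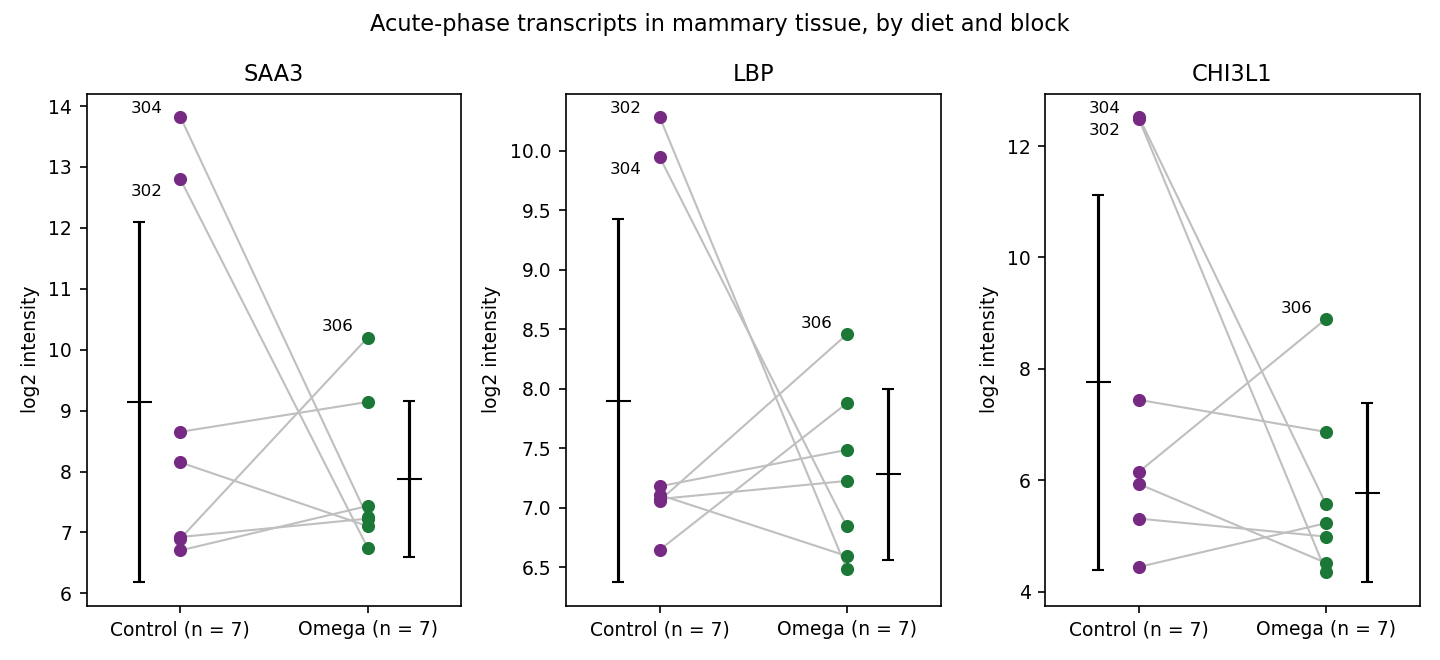
Log2 intensity of SAA3, LBP and CHI3L1 (1 panel each, vertical axes with different spans) in Control (purple) and Omega (green) cows, with grey lines joining the cows of a block and black bars for mean and SD (n = 7 each). The Control cows of blocks 302 and 304 lie above all others in each panel, and the Omega cow of block 306 is the highest of the Omega cows.

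The 12 remaining cows were not uniform, and several held intermediate levels. The Omega cow of block 306 had SAA3 at 10.20, LBP at 8.46 and CHI3L1 at 8.90. These values were 7.77-fold, 2.58-fold and 11.0-fold above the medians of the 12 cows. Both cows of block 305 followed for SAA3, at 9.14 in Omega and 8.65 in Control, and for CHI3L1, at 6.87 and 7.44. In LBP the cows of block 305 lay near the median, at 7.23 and 7.07. The Control cow of block 303 was intermediate for SAA3 only, at 8.15, with LBP at 6.65 and CHI3L1 at 5.93. The Omega cow of block 303 had the reverse, with LBP at 7.88, the fourth highest of 14, SAA3 at 7.10 and CHI3L1 at 4.52.

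The other 7 cows had SAA3 between 6.70 and 7.43, at the foot of its range. Among them CHI3L1 still varied from 4.35 in the Omega cow of block 302 to 6.15 in the Control cow of block 306. LBP in these cows ran from 6.48 to 7.49. Over the 12 cows the ranges were 3.49 log2 for SAA3, 1.97 for LBP and 4.54 for CHI3L1. They ranked 28th, 166th and 10th among the 7518 probe sets, whose median range in these cows was 0.64 log2. The wide ranges of SAA3 and CHI3L1 were thus present without the 2 Control cows.

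SAA3 and CHI3L1 covaried over the 12 cows, and their correlations with LBP were lower. Because the 2 Control cows formed a separate cluster, no Pearson correlation over all 14 is given for these 3 genes. Over the 12 cows SAA3 and CHI3L1 had a Pearson r of 0.91 and a Spearman rho of 0.78. Without the 2 cows farthest from the SAA3 median r was 0.80, and without the Omega cow of block 306 it was 0.82. Within the 5 blocks that lack the 2 Control cows, after removal of block means, r was 0.92. That value rests on only 5 block differences, with block 306 the largest in both genes (3.30 for SAA3, 2.75 for CHI3L1). CHI3L1 went up by 1.13 log2 for each log2 unit of SAA3.

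LBP had an r of 0.54 with SAA3 and 0.50 with CHI3L1 over the same 12 cows, with rho of 0.36 and 0.28. Both values depended on single cows. Without the Omega cow of block 306, r was 0.046 with SAA3 and -0.024 with CHI3L1. Without the Omega cow of block 303, where LBP was high and the others low, r was 0.67 and 0.71. The relation of LBP to the other members among the 12 cows was thus not settled by these data. Distance of an array from the others moved with SAA3 over the same cows, and its part in the correlations was not tested. These correlations are descriptions over cows that share arrays of one design and a common normalization, and the genes were chosen with the pattern in view.

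**Figure D2:**
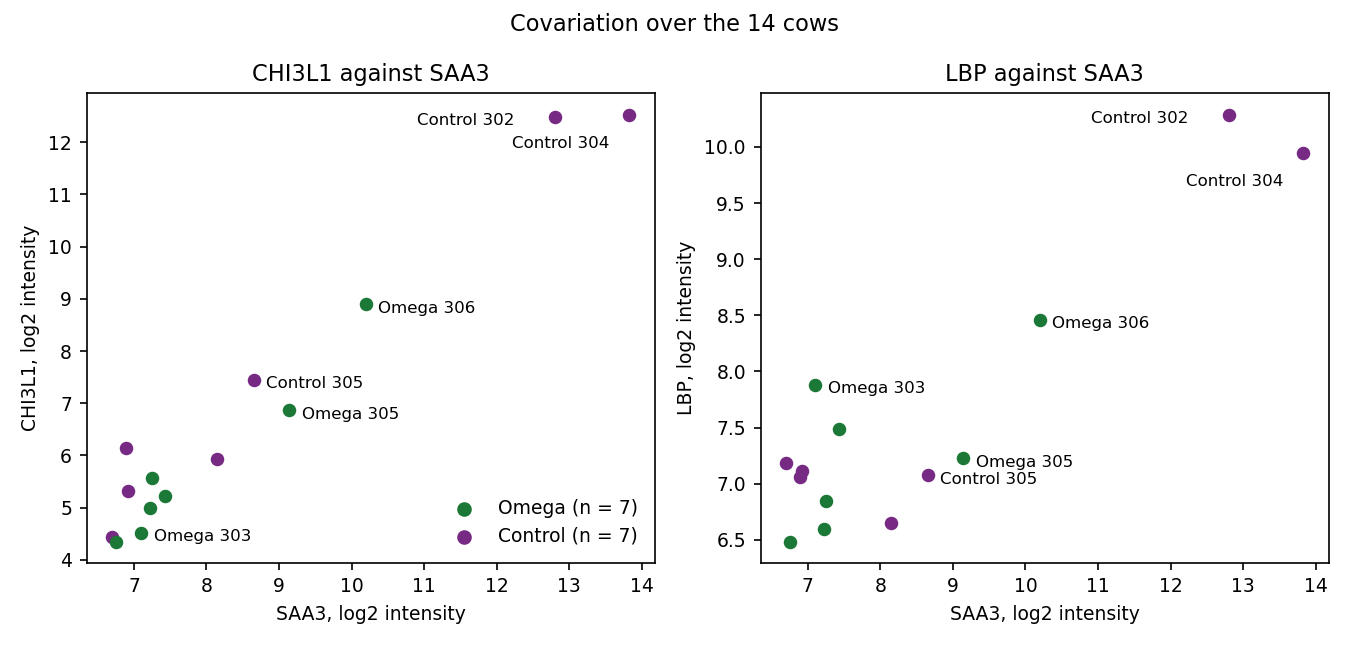
CHI3L1 (left) and LBP (right) against SAA3 in each of the 14 cows, all in log2 intensity, with Omega cows in green and Control cows in purple. CHI3L1 tracks SAA3 through the intermediate cows (r = 0.91 over 12 cows), while the correlation of LBP goes from 0.54 to 0.046 without the Omega cow of block 306 and to 0.67 without that of block 303.

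The genes most like each member were found by Spearman's rho over the 14 cows among 4931 other named genes tested, as a description only. For SAA3 these were FOLH1, a glutamate carboxypeptidase (0.93), PKIB, an inhibitor of protein kinase A (0.92), ZMAT2, a splicing factor (0.91), SVBP, the partner of vasohibins (0.90), RBPJ, the DNA-binding factor of Notch signalling (0.89), and MBIP (0.89). FOLH1 was at 8.48 and 9.41 in the 2 Control cows and at 5.39 to 6.91 in the other 12, and its r with SAA3 over these 12 was 0.89. CHI3L1 stood 23rd in this order and LBP 713th. A rho of at least 0.7 with SAA3 was reached by 6.37% of the genes.

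The genes closest to CHI3L1 were LGALS3, a lectin of the galectin family (0.95), SCN3B, a sodium channel subunit (0.95), CFI, complement factor I (0.94), ZMAT2 (0.94), KHDRBS1, an RNA-binding protein (0.93), and SVBP (0.93). CFI, which inactivates complement components, was at 9.29 and 9.50 in the 2 Control cows. In the other 12 cows CFI ran from 3.70 to 6.93, highest in the Omega cow of block 306. Its median in the 12 was 4.09, below the filter level of 4.59, so CFI passed the filter through its few high values. ZMAT2 and SVBP thus appeared in the lists of both SAA3 and CHI3L1, although each varied little, at 6.86 to 7.50 and 7.28 to 8.50 over 14 cows. For CHI3L1, 7.20% of the genes reached a rho of 0.7.

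LBP had other neighbours. They were BNIPL (0.87), TUBE1, a tubulin (0.87), UBE2E3, a ubiquitin-conjugating enzyme (0.87), ARSK, a sulfatase (0.87), ALDH2, the mitochondrial aldehyde dehydrogenase (0.86), and PSMB8, a subunit of the immunoproteasome (0.86). ALDH2 was at 12.29 and 11.77 in the 2 Control cows and 11.94 in the Omega cow of block 306, with 11.36 to 11.94 over the 12 cows. Only 1.68% of the genes reached a rho of 0.7 with LBP. Leaving out the other members, 192 genes reached 0.7 with both SAA3 and CHI3L1, which was 61.3% of the 313 for SAA3 and 54.2% of the 354 for CHI3L1. LBP shared 22 genes with SAA3, or 26.5% of its own 83 and 7.03% of the SAA3 set. With CHI3L1 it shared 9, or 10.8% of its set and 2.54% of the other.

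The diet comparison asked whether linseed altered expression in the gland. None of the 3 genes passed the test, and neither did any other probe set. In the limma fit 0 of 7518 (0%) reached an adjusted p below 0.05. At an unadjusted p below 0.05 there were 11.0%, of which 3.78% of all probe sets were higher and 7.22% lower in Omega, and none of the 3 members was among them. Over all probe sets, 43.1% had a higher mean in Omega. Control means were higher for all 3 members, through the 2 Control cows that also prompted their choice, so these means are no separate evidence of a direction.

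SAA3 ran from 6.75 to 10.20 with a median of 7.25 in the 7 Omega cows, and from 6.70 to 13.82 with a median of 8.15 in the 7 Control cows. The groups overlapped over the whole Omega range. The means were 7.87 ± 1.28 and 9.14 ± 2.96 (SD, n = 7 each), a difference of -1.26 log2 with a 95% confidence interval from -3.79 to 1.26. The limma adjusted p was 0.604, and flipping signs across the 7 blocks (exact test, two-sided) gave p = 0.406, where 0.0156 is the smallest possible. By block, from 302 to 308, Omega minus Control was -6.05, -1.05, -6.57, 0.49, 3.30, 0.73 and 0.30. SAA3 was thus higher in Omega in 4 of 7 blocks, and the median block difference of 0.30 had the opposite sign to the mean. The spread of the block differences was 3.69 (SD), wider than the mean difference.

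LBP ran from 6.48 to 8.46 in Omega cows, with a median of 7.23, and from 6.65 to 10.29 in Control cows, with a median of 7.11. The 2 high Control cows lay outside the Omega range and the other 5 inside it. The means were 7.28 ± 0.72 and 7.90 ± 1.53 (SD, n = 7 each). Their difference was -0.62 log2 (95% confidence interval -2.03 to 0.79, limma adjusted p = 0.645, exact sign-flip p = 0.4375). The block differences were -3.80, 1.23, -3.11, 0.15, 1.40, 0.31 and -0.51, so LBP was higher in Omega in 4 of 7 blocks, with a median of 0.15. Here too the mean and the median of the block differences had opposite signs.

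CHI3L1 ran from 4.35 to 8.90 in Omega cows, with a median of 5.23, and from 4.44 to 12.52 in Control cows, with a median of 6.15. As for LBP, 5 of the Control cows lay within the Omega range. The means were 5.77 ± 1.61 and 7.76 ± 3.37 (SD, n = 7 each). Their difference was -1.98 log2 (95% confidence interval -4.74 to 0.78, limma adjusted p = 0.516, exact sign-flip p = 0.3125). By block the differences were -8.14, -1.42, -6.96, -0.58, 2.75, 0.79 and -0.32. CHI3L1 was lower in Omega in 5 of 7 blocks, and its median block difference was -0.58. Among all probe sets tested, 55.4% moved the same way in at least 5 of 7 blocks.

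**Figure D3:**
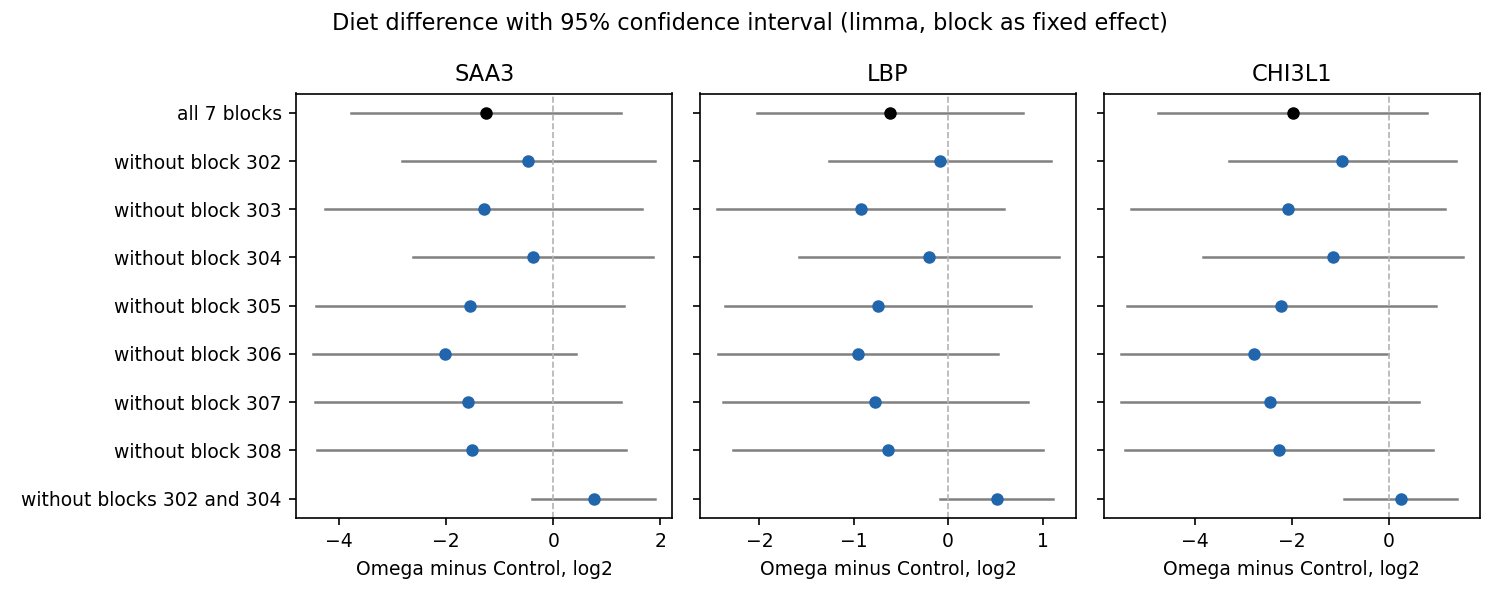
Omega minus Control in log2 units (points) with 95% confidence intervals (lines) from limma for each member, with all 7 blocks in black and, in blue, without each block in turn and without blocks 302 and 304 together. The estimates lie below 0 except without both blocks, and every interval includes 0 other than that of CHI3L1 without block 306 (-5.52 to -0.02).

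Leaving out blocks 302 and 304 turned the sign of all 3 diet differences. They became 0.76 for SAA3 (95% confidence interval -0.40 to 1.91), 0.52 for LBP (-0.08 to 1.11) and 0.24 for CHI3L1 (-0.93 to 1.41), with limma adjusted p = 0.790, 0.746 and 0.939. In these 5 blocks SAA3 stood at 8.22 ± 1.38 with linseed and 7.47 ± 0.88 without it (SD, n = 5 each). LBP was at 7.53 ± 0.70 and 7.01 ± 0.21, and CHI3L1 at 6.10 ± 1.80 and 5.86 ± 1.11. The 2 blocks were left out for their high Control cows, so a shift towards Omega was built in. Of the other 5, block 306 had the largest difference for each member, at 3.30, 1.40 and 2.75 log2. CHI3L1 was lower in Omega in blocks 303, 305 and 308. In the full set, the intervals allowed a difference of 2.52 log2 to either side of the estimate for SAA3, 1.41 for LBP and 2.76 for CHI3L1. The median over all 7518 probe sets was 0.26, so that a diet effect of several-fold on SAA3 or CHI3L1 in either direction was not detectable with these cows.

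Parity labels were compared between the 4 cows labelled 1 (a label that the design text does not match), which are the cows of blocks 302 and 306, and the other 10. No probe set passed in limma (0 of 7518, 0%), and 2.19% had an unadjusted p under 0.05. SAA3 in the 4 cows was 12.80, 6.75, 10.20 and 6.90, so this class held both high and low cows. The mean of these 4 cows of 9.16 ± 2.90 (SD, n = 4) was 0.92 log2 above the 8.24 ± 2.11 of the others (SD, n = 10). The interval ran from -1.75 to 3.59 (limma adjusted p = 0.983). LBP was 0.67 higher in the parity 1 cows, at 8.07 ± 1.69 against 7.40 ± 0.97, and CHI3L1 was 1.69 higher, at 7.97 ± 3.55 against 6.28 ± 2.39, both with limma adjusted p = 0.983. The Control cow of block 304, with a parity label of 2, was among the 10 others. Without the 2 Control cows the differences were 0.26, 0.17 and 0.85 log2 (limma adjusted p = 0.9995 each).

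The levels were also set against 5 recorded traits over the 12 cows, which gave 15 relations. The traits were parity, expected calving day, and the milk, fat and protein recorded in the previous lactation for its opening 100 days. With 100000 permutations none passed after Benjamini-Hochberg adjustment. The smallest unadjusted p was 0.323 for Pearson's r (LBP and calving day, r = -0.313, rho = -0.267, adjusted p = 0.965, permutation test), and without the 2 cows farthest from the median day r was -0.407. The 9 relations with previous milk, fat and protein had r from -0.276 (CHI3L1 with milk) to 0.013 (SAA3 with protein). Without the 2 cows farthest from the median of the trait, r of all 9 lay between 0.481 (CHI3L1 with milk) and 0.649 (SAA3 with protein), so their sign and size rest on those cows. The 2 Control cows shared an expected calving day, 21 days after the earliest cow. The Control cow of block 305, with intermediate SAA3, was due 1 day later. The Omega cow of block 306, at 10.20 for SAA3, was due on day 29, as were the Omega cows of blocks 302 and 307 and the Control cow of block 306, at 6.75, 7.43 and 6.90.

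Other acute-phase proteins were examined next, from a list of 30 genes of which 20 had a probe set and 12 were tested. For diet 6 were higher in Omega and 6 lower, where 43.1% of all 7518 probe sets were higher. Of the 12, 0 passed limma after adjustment and 2 had an unadjusted p under 0.05, against 11.0% of all probe sets. The median difference was 0.03 log2, against -0.03 over all probe sets. Without blocks 302 and 304, 8 of 12 were higher in Omega with a median of 0.10 log2, where over all probe sets 46.4% were higher and the median was -0.01. HP, haptoglobin, which binds free haemoglobin, set the 2 Control cows apart from each other. HP was at 4.84 in the cow of block 302 and 10.00 in that of block 304, a 35.6-fold difference, although SAA3 differed only 2.03-fold between them. In the other 12 cows HP lay from 3.49 to 6.12, highest in the Omega cow of block 306. Complement factor B, CFB, followed the same order, at 8.25 and 10.45 against 4.93 to 7.66. HP and CFB were the 2 of 12 with a rho of at least 0.7 with SAA3, against 6.37% of all genes. CFB was picked out after its values were seen. HP had a median of 3.98 in the 12 cows, below the filter level of 4.59. It passed the filter through its few high values, above all that of the Control cow of block 304.

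C3, the central complement component, was at 12.38 and 11.77 in the 2 Control cows and at 12.16 in the Omega cow of block 306, the highest of the 12, whose lowest was 10.18. A2M, a broad protease inhibitor, was at 10.76 and 11.04 against 8.85 to 10.37. TTR, the thyroid hormone and retinol carrier, was at 10.19 and 9.50 against 6.29 to 8.55. TTR did not follow SAA3 in the intermediate cows, with 6.87 in the Omega cow of block 306 and an r of -0.02 over the 12. FGG, the fibrinogen gamma chain, was at 8.91 and 8.30 in the 2 Control cows, within or at the foot of the 8.30 to 9.62 of the others.

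Of the genes that act with LBP in endotoxin recognition, 0 of 9 tested had a rho of at least 0.7 with SAA3, where the 6.37% of all genes would come to under 1 in 9. CD14, which receives endotoxin from LBP, was at 6.41 and 6.27 in the 2 Control cows and 6.27 in the Omega cow of block 306, at the low end of the 6.27 to 7.48 seen in the 12. Another Omega cow also had CD14 at 6.27. The rho of CD14 with SAA3 over 14 cows was -0.43. TLR4, the endotoxin receptor, was at 6.88 and 7.23 against 6.21 to 6.88. TLR2, the receptor for bacterial lipoproteins, was at 8.15 and 8.23, inside its range of 7.48 to 9.25. The adaptor MYD88 was at 7.59 and 7.67 against 7.63 to 8.24. The list held 18 genes, of which 13 were measured. For diet 1 tested gene was higher and 8 lower in Omega (43.1% of all probe sets were higher), with a median of -0.08 log2. Of the 9, 0 passed the adjusted limma test and 2 had an unadjusted p under 0.05, against 11.0% of all probe sets. Without blocks 302 and 304, 4 of 9 were higher (46.4% of all probe sets), with a median of -0.07.

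Receptors of serum amyloid A gave 5 tested genes of 11 listed, with 1 higher and 4 lower in Omega, a median of -0.08 log2, 0 past the test and 1 with an unadjusted p under 0.05. With blocks 302 and 304 left out, 1 of 5 was higher, with a median of -0.19. Of all probe sets, 43.1% were higher in Omega, 46.4% without these blocks, and 11.0% had an unadjusted p under 0.05. CD36, a scavenger receptor and a protein of the milk fat globule, was at 12.09 and 11.65 in the 2 Control cows, below the 12.49 to 13.24 of the 12. SCARB1, the receptor for high-density lipoprotein, was at 6.62 and 7.41 against 6.20 to 7.01. Of the chitinase-like family and its partners 6 of 12 listed genes were tested, with 3 higher and 3 lower in Omega, 0 past the test and 1 with an unadjusted p under 0.05, and 3 of 6 were higher without blocks 302 and 304 too. LGALS3 was at 10.40 and 10.70 in the 2 Control cows and 8.92 in the Omega cow of block 306, against a lowest value of 7.47. CD44, the hyaluronan receptor, was at 9.73 and 9.76 against 6.45 to 7.99, but at only 7.43 in the Omega cow of block 306. TMEM219, a receptor subunit for CHI3L1, was at 7.41 and 7.64, just below its range of 7.65 to 8.00.

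Regulators upstream of acute-phase genes gave 12 tested of 31 listed, with 2 higher and 10 lower in Omega, a median of -0.06 log2, 0 past the test and 1 with an unadjusted p under 0.05. Without blocks 302 and 304, 7 of 12 were higher and the median was 0.015. The shares of all probe sets were 43.1% higher in Omega, 46.4% without these blocks, and 11.0% with an unadjusted p under 0.05. STAT3, which carries the interleukin-6 signal, was at 8.52 and 8.83 in the 2 Control cows and 8.14 in the Omega cow of block 306, against a lowest value of 7.24. It was the only 1 of the 12 with a rho of at least 0.7 with SAA3, against 6.37% of all genes. CEBPD, a transcription factor of the acute-phase response, was at 10.63 and 10.75 against 9.28 to 10.42. NFKBIA, the inhibitor of NF-kB, was at 8.62 and 8.80, inside its range of 7.95 to 9.71. IL1B, the interleukin that starts much of the response, lay below the filter in every cow, at 3.65 to 4.02, and so did SOCS3, at 3.08 to 3.50.

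Milk defence proteins gave 12 tested of 25 listed, with 3 higher and 9 lower in Omega, a median of -0.06 log2, 0 past the test and 0 with an unadjusted p under 0.05. In the other 5 blocks 6 of 12 were higher, with a median of -0.02. Among all probe sets 43.1% were higher in Omega, 46.4% in these 5 blocks, and 11.0% had an unadjusted p under 0.05. The 4 of highest mean, XDH, RNASE4, ANG and PIGR, had a rho with SAA3 of -0.47, -0.38, -0.51 and 0.07. LTF, the iron-binding lactoferrin, was at 14.20 and 14.37 in the 2 Control cows and 12.90 in the Omega cow of block 306, against a lowest value of 8.69. Both LTF values of the 2 cows lay where the scale is compressed. LAP, an epithelial beta-defensin picked out after its values were seen, was far higher in 1 of the 2 cows, as HP was, at 6.68 in the cow of block 302 and 11.34 in that of block 304 against 4.99 to 6.60. Of the neutrophil calgranulins, S100A8 was at 5.28 and 7.37 against 4.85 to 6.16, and S100A9, which did not pass the filter, at 4.35 and 7.75 against 3.91 to 4.37. The third, S100A12, was above the other 12 in both cows, at 6.00 and 7.09 against 4.39 to 5.82, a 2.12-fold difference between the pair.

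Chemokines gave 9 tested of 23 listed, with 2 higher and 7 lower in Omega (43.1% of all probe sets were higher). Their median was -0.20 log2, with 0 past the test and 1 with an unadjusted p under 0.05 (11.0% of all probe sets). Without blocks 302 and 304 that median was 0.22, with 6 of 9 higher (46.4% over all probe sets). CCL2, which draws monocytes, CXCL16 and CXCL10 had a rho with SAA3 of 0.89, 0.86 and 0.85, and were named for that. They were the 3 of 9 with a rho of at least 0.7, against 6.37% of all genes. The 4 of highest mean, CXCL3, CXCL14, CXCL12 and CCL3, had a rho of 0.58, 0.52, 0.61 and -0.60. CCL3 was at 7.46 and 7.58 in the 2 Control cows, below the 7.74 to 8.65 of the other 12. CCL2 was at 6.17 and 7.11 in the 2 Control cows against 4.45 to 5.40. CXCL10, an interferon-induced chemokine, was at 5.62 and 5.59 in these cows, inside the 3.42 to 6.19 of the other 12. Milk synthesis genes gave 16 tested of 22 listed, with 11 higher and 5 lower in Omega, a median of 0.08 log2, 0 past the test and 0 with an unadjusted p under 0.05. Without blocks 302 and 304 4 of 16 were higher, against 46.4% of all probe sets, with a median of -0.04. LPL, the lipase that supplies fatty acids to the gland, was at 11.07 and 11.10 in the 2 Control cows and 11.49 in the Omega cow of block 306, against up to 13.30. Another Omega cow had LPL at 11.56.

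**Figure D4:**
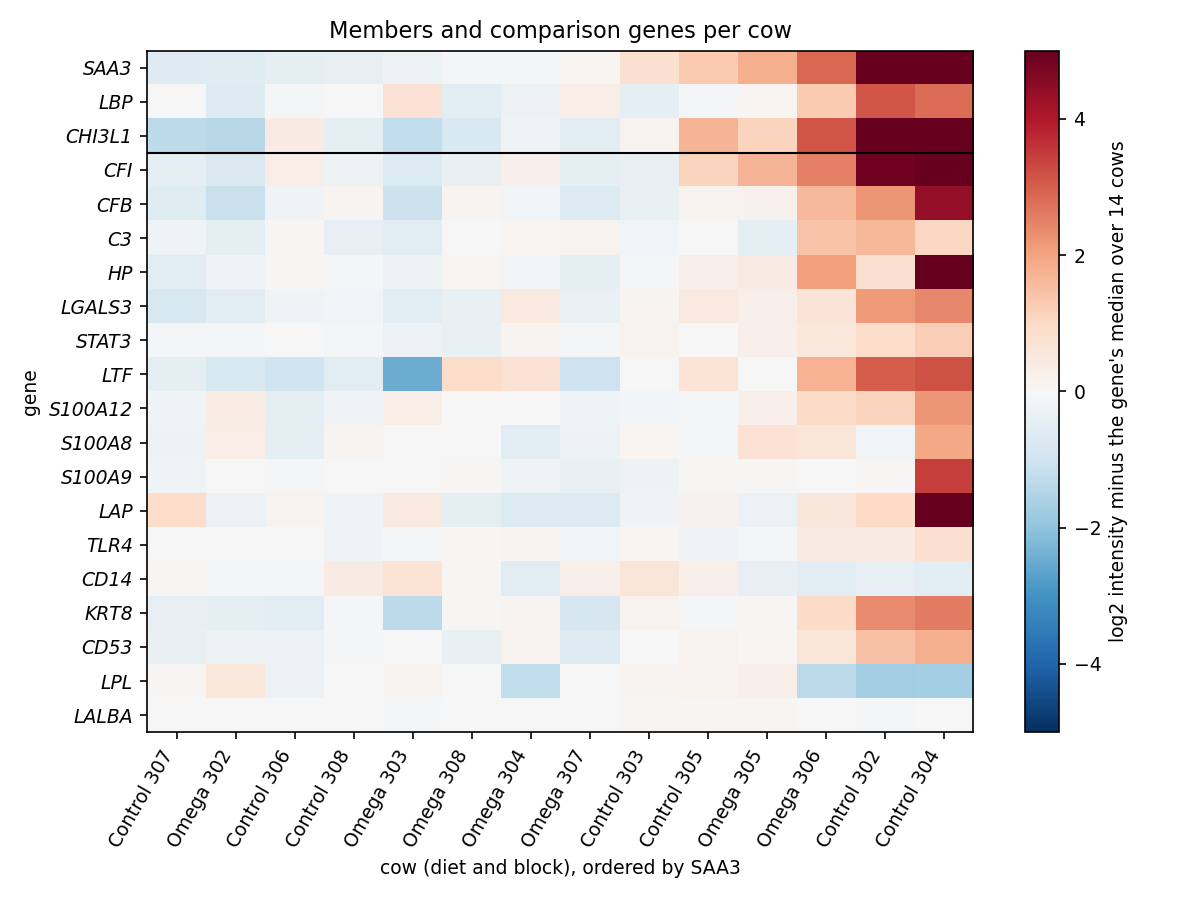
Log2 intensity minus each gene's median over 14 cows for the 3 members (above the line) and 17 comparison genes, with cows ordered from low to high SAA3 and colours limited at 5 log2 units to either side. CHI3L1, CFI and LGALS3 deepen with SAA3 through the 3 rightmost cows, whereas HP, LAP and S100A9 stand out in the Control cow of block 304, and CD14 and LPL are low in the 3 rightmost cows.

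Markers of several cell types were also higher in the Control cows of blocks 302 and 304, and their part in the levels of SAA3, LBP and CHI3L1 was not tested. The mean of 7 leukocyte markers was 7.12 and 7.31 in these cows and 5.87 to 6.44 in the other 12, where it was highest in the Omega cow of block 306. The mean of 7 luminal epithelium markers was 8.86 and 8.78 against 7.65 to 8.46, again highest in that cow. The mean of 7 fibroblast markers was 10.43 and 10.21 against 9.05 to 9.64, and that of 4 myoepithelium markers 8.82 and 8.83 against 8.12 to 8.51. The mean of 8 neutrophil markers was 4.79 and 5.74 against 4.42 to 4.82, so the cow of block 302 lay inside the range. The mean of 6 macrophage markers was 6.57 and 6.67 against 5.96 to 6.44. The mean of 7 T cell markers was 5.82 and 6.21 against 5.37 to 5.76, and that of 5 B or plasma cell markers 5.00 and 6.13 against 5.05 to 5.42. The mean of 7 endothelial markers was 6.23 and 5.91 against 5.74 to 6.08, and that of 5 adipocyte markers 6.73 and 6.50, below the 6.81 to 7.32 of the others.

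Over the 12 cows, the mean marker levels had an r with SAA3 of 0.70 for luminal epithelium, 0.57 for leukocytes, 0.50 for neutrophils, 0.45 for myoepithelium, 0.36 for macrophages and 0.07 for fibroblasts. It was 0.03 for B or plasma cells, -0.03 for T cells, -0.18 for liver cells, -0.35 for adipocytes and -0.43 for endothelium. Markers of liver cells, the main source of serum amyloid A in blood, had a mean over 9 markers of 4.81 and 4.92 in the 2 cows against 4.52 to 4.83. ALB, serum albumin, lay between 3.52 and 4.20 in all 14 cows. Other markers of the list were not dim: TTR, given above, was at 10.19 and 9.50, and APOA1, the main apolipoprotein of high-density lipoprotein, at 6.63 and 8.15 against 4.37 to 6.65. The apolipoproteins APOC3 and APOA2 went the other way and lay below all 12 other cows. APOC3 was at 5.42 and 5.45 against 5.63 to 6.87, and APOA2 at 4.26 and 4.28 against 4.44 to 5.10. On RNA quality, the GAPDH 3' minus 5' difference was 0.80 and 0.78 in the 2 cows, just below the 0.81 to 1.40 of the others. The level of the GAPDH 3' probe set was 11.73 and 11.42, above the 10.03 to 10.61 of the others, and its part in the results was not tested. The BioB hybridization spikes were at 8.18 and 8.23, inside the range of 7.87 to 9.43.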

How the data were processed

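Per the labels' protocols, total RNA was isolated with Trizol, and cRNA carrying biotin was hybridised, 1 array per cow. The deposited values are log2 intensities in 1 table. The submitters' processing notes list RMA and GCRMA with no version, and the role of each in making these log2 values is not given there. Of 10852 rows, 112 were array controls and 10740 carried a RefSeq accession. The RefSeq table of assembly ARS-UCD2.0 gave 1 symbol to 6749 of them and left 3991 unnamed. The row with the highest mean was used per symbol.

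Probe sets with a mean above the 30th percentile (log2 4.59) were tested, 7518 in all, with limma 3.58.1 in R 4.3.3 and Benjamini-Hochberg adjustment at 0.05. Block was fixed in the diet fit and random in the parity fit, which also held diet. The pairing came from the stated design; cows of a block deviated from their diet means with correlations of -0.47 to 0.32, above 0.1 in 3 of 7 blocks. The fits were tested on simulated data.

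The members, the 8 pathway lists and the 11 marker lists were chosen with earlier results of these data known. For each member the 6 genes of highest Spearman rho were named, and for each list the 4 tested members of highest mean, besides a fixed set of immune and milk genes. CFB, CFI (also named by the rho rule), LAP, LYZ, CCL2, CXCL10 and CXCL16 were added after their values were seen. Alternatives covered the block, filter, normalization, array weights, variance model, covariates and each block left out.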

Additional observations from a re-analysis of the deposited data

Results flagged for a closer look

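Of 177 groups examined, 14 held a cow whose gap to the nearest other cow was a large share of the group's range. Chance gives about 1 in 20 for independent groups that were not selected. These groups reuse the same cows over related genes, some picked after their values were seen, so the count is not set against that rate. The members were chosen with their high cows known, and the Control cow of block 302 falls in the other parity class. Their flags are therefore description only. Among the 10 cows with a parity label of 2 or more, the Control cow of block 304 stood apart in all 3 members. Its gap was 0.658 of the range for SAA3 (13.82, next 9.14), 0.617 for LBP (9.95, next 7.88) and 0.629 for CHI3L1 (12.52, next 7.44). Within diets the members were not singled out, since the Control group held 2 high cows side by side.

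The same cow stood alone among the 7 Control cows for HP (0.792 of the range; 10.00, next 4.84), LAP (0.792; 11.34, next 6.68) and S100A8 (0.746; 7.37, next 5.56). It also did so for JCHAIN, the joining chain of polymeric antibodies (0.672; 12.13, next 10.98), and MZB1, a plasma cell protein (0.664; 6.59, next 5.25), and lay lowest for FABP4, a fatty acid carrier (0.619; 11.64, next 12.57). The Control cow of block 302 was highest for PECAM1, an endothelial adhesion protein (0.594; 8.13, next 7.59).

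Among the 7 Omega cows, the cow of block 306 stood alone for C3 (0.642; 12.16, next 10.89) and HP (0.655; 6.12, next 4.48). An Omega cow was also alone for CD2, a T cell protein (0.713; 6.10, next 5.72), and CCL2 (0.576; 5.40, next 5.10).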

How the results depend on the processing

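With 18 alternatives for each diet difference, 17 kept the direction and none brought a member past the threshold. The exception was leaving out blocks 302 and 304, chosen for their high Control cows. That fit gave 0.76 for SAA3, 0.52 for LBP and 0.24 for CHI3L1. Adjusted p in limma ranged from 0.341 to 0.927, from 0.424 to 0.962 and from 0.306 to 0.939. The fit without the replicate block, and so without the pairing, gave the same differences of -1.26, -0.62 and -1.98 and changed no call. With 1 block left out, the differences ran from -2.02 to -0.38 for SAA3, from -0.95 to -0.088 for LBP and from -2.77 to -0.96 for CHI3L1, nearest 0 without block 304 for SAA3 and without block 302 for LBP and CHI3L1. Without block 306 the interval of CHI3L1, -5.52 to -0.02, left out 0, with an adjusted p of 0.306 in limma. Array weights brought them to -0.33, -0.11 and -0.96. The count of probe sets with an unadjusted p under 0.05 for diet, 827, became 494 without blocks 302 and 304, 516 without block 303 and 434 without block 304. For parity it went from 165 to 250 with no filter, 85 without block 302, 102 without block 305 and 1103 without block 304. With 1 block left out the parity differences ran from 0.31 to 1.54, from 0.36 to 0.99 and from 1.24 to 2.38. With parity as a linear covariate they were -0.55, -0.32 and -0.81 per step of the label, with adjusted p = 0.235, 0.205 and 0.172 in limma, and the intervals of LBP (-0.62 to -0.015) and CHI3L1 (-1.45 to -0.16) left out 0. So did that of the CHI3L1 parity difference without block 304 (0.28 to 4.48, adjusted p = 0.328). The linear fit held the 2 high Control cows and was not run without them. Over the other 12 cows, r with the parity label was -0.12 for SAA3, -0.20 for LBP and -0.27 for CHI3L1. The rho values were -0.007, 0.02 and -0.18. Averaging several probe sets per symbol was not run, as each member has 1. Probe sets near either end of the scale give compressed differences.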

Other observations

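LYZ, lysozyme, which cleaves bacterial cell walls, had a rho of 0.75 with SAA3 over 14 cows and was named after its values were seen. It was at 7.66 and 7.46 in the Control cows of blocks 302 and 304. These were its highest values, but unlike for SAA3 there was almost no gap. The other 12 cows ran from 4.81 to 7.457, against 7.464 in the Control cow of block 304. KRT8, a keratin of luminal epithelium, was at 10.57 and 10.81 in the 2 cows against 6.90 to 9.19, and CD53, a leukocyte surface protein, at 7.61 and 7.97 against 5.54 to 6.77. CD3G, a T cell receptor chain, was at 7.62 and 8.30 against 5.97 to 7.00, while CD3E, its partner chain, was at 6.58 and 7.01 against 6.31 to 6.88. The epithelial markers KRT19 and CLDN7 overlapped between the 2 cows and the other 12.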
